A study of Orbilia oligospora with 2 samples.

Results

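The 56 sites described here are the matches to a GC-rich motif, the second motif of the authors' search, in peaks of AoMbp1, a transcription factor of Arthrobotrys oligospora (Orbilia oligospora), a fungus that traps nematodes. They were chosen by the authors' peak calls and motif matches, as the rows of the authors' motif table that carry this motif's name, and make up 56 of its 199 sites. They lie in 28 of the 150 AoMbp1 peaks. The other 143 sites match an AT-rich motif. In DAP-seq, a tagged transcription factor is mixed with naked genomic DNA in the test tube, and the fragments it holds are sequenced, so chromatin plays no part in the binding. AoMbp1 carried a Halo tag, and the DNA came from hyphae of the fungus. There was 1 library with AoMbp1 and 1 of input DNA, so no value between them has a replicate or a test. The labels name no strain, and no library with the tag alone was analysed here.

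Mbp1 belongs to a family of fungal transcription factors that bind DNA through a KilA-N type domain. In budding yeast it pairs with Swi6 to form MBF, which recognises the element ACGCGT in promoters of genes for DNA synthesis and drives their transcription at the start of S phase. A motif search on peaks reports letter patterns shared by the peak sequences, whether or not the protein binds those letters.

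The AoMbp1 library had 77019180 mapped reads, of which 85.2% were duplicates, and the input had 63020247, of which 10.6% were duplicates. Fold enrichment and pileup (the depth of reads or fragments at a summit) are the authors' values per peak. The input background is the pileup that the input would give at a peak and was computed from these values as (pileup + 1) / fold enrichment - 1. At 22 peaks it had the same lowest value of 24.8, which could be a minimum set by the caller, with the local input below it.

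Nearly all GC-rich sites lay on 2 scaffolds, which also held nearly all of the peak sequence. Of 109394 bp of peak sequence, 101008 bp were on NW_011645605.1 and 2275 bp on NW_011645625.1. NW_011645625.1 held 30 of the 56 sites (53.6%) in its 6 peaks, all of which had at least 2. NW_011645605.1, the scaffold with most peaks, held 23 sites (41.1%) in 19 of its 119 peaks (15.97%, exact 95% binomial interval 9.9 to 23.8). The order of these counts rests on peak 128 of NW_011645625.1, where sites overlap. With overlapping sites joined into runs, NW_011645625.1 held 17 of 41 runs and NW_011645605.1 21, and without peak 128 the former held 13 of 39 sites and the latter 23. The other 18 scaffolds with a peak held 3 sites, 1 each in 3 of 25 peaks (12%, 2.55 to 31.2). These intervals cover counting error only and treat the peaks of a scaffold as independent.

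The farthest of the 56 sites was 223 bp from its summit, and the farthest of both motifs 228 bp. On NW_011645605.1 only 44475 of 101008 bp of peak sequence lay that near to a summit. Whether sequence farther out was searched is not stated in the sources used here. Counts of sites per peak, and peaks called without a site, thus refer to sequence near summits. Counted per kb of peak sequence within 228 bp of summits, NW_011645605.1 had 0.517 sites and the 18 other scaffolds 0.499. NW_011645625.1 had 15.02 sites per kb, 29.05 times the density of NW_011645605.1. Without peak 128, which alone held 17 sites, its density was 7.80 per kb, or 15.1 times. With overlapping sites joined into runs, the density was 8.51 runs per kb against 0.472, or 18.0 times. The motif was found in these same peaks, so these densities are not independent of the search. The base composition of the peak sequence outside the sites was not analysed here, so its part in these densities was not tested.

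Each site is 15 bases long, and 62.6% of the matched bases were G or C, against 8.34% in the AT-rich sites. The strand read in the match was rich in C (48.8%) and poor in G (13.8%). All 56 site sequences were different, while the 143 AT-rich sites had 103 different ones. A pair of GC-rich sites agreed at a median of 7 of 15 positions over 1540 pairs, and 7 pairs agreed at 12 or more.

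Across the 56 sites, the bases were most fixed at the first position and at positions 11 and 12. Information content, which is 2 bits for a position that never varies and 0 for one with equal bases, was 1.17 bits at position 11, 1.11 at position 1 and 1.08 at position 12, counted from the 5′ end of the matched strand. G or C stood at position 12 in 54 of the 56 sites. Positions 4, 9 and 10 carried little information, at 0.068, 0.10 and 0.15 bits. All positions summed to 9.21 bits over the 56 sites, a sum in which the overlapping sites of peak 128 weigh more than those of any other peak. These values describe the listed matches and not the authors' motif model.

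**Figure D1:**
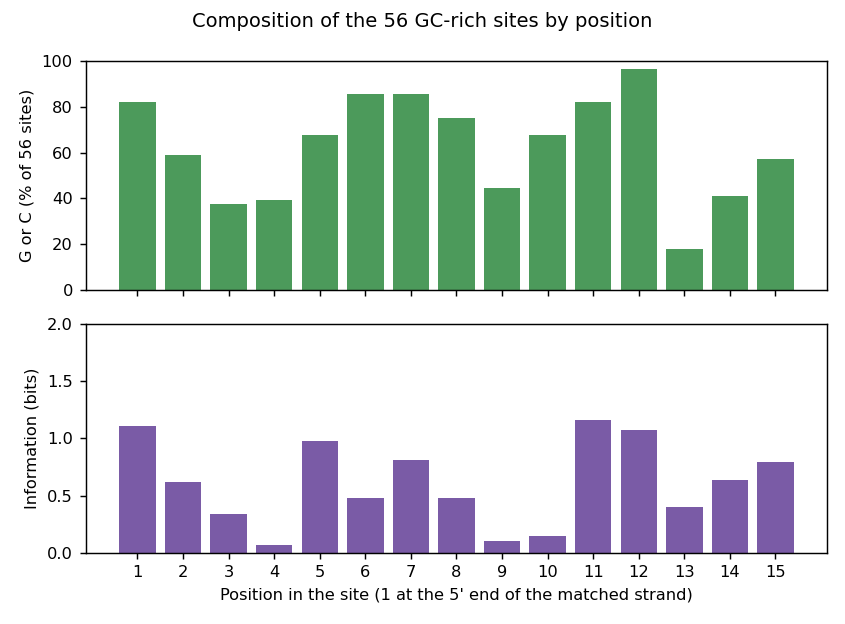
The upper bars give the percentage of the 56 GC-rich sites with G or C at each of 15 positions, and the lower bars the information content in bits. Positions 1, 11 and 12 exceed 1 bit, and position 13 has the lowest share of G or C (17.9%).

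The matches were compared with the ACGCGT element on both strands. No GC-rich site held all 6 letters. The best match was 5 of 6 letters in 4 sites (peaks 126 and 129, and 2 sites of peak 128), all on NW_011645625.1. The 2 sites of peak 128 shared 14 of their 15 bases. None of the 143 AT-rich sites reached 5 letters. The core CGCG, which reads the same on both strands, stood in 4 GC-rich sites, in peaks 29, 125, 126 and 144, and in no AT-rich site. Only the site of peak 126 had both the core and 5 of the 6 letters. The AT-rich sites had 8.34% G or C and could hardly match letters that are mostly G and C, so their lack of matches says little. How many matches the composition of the GC-rich sites alone would give was not computed. These are matches of letters inside sites picked for another motif, and the remaining peak sequence was not analysed here.

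The strength of the matches ranged widely. Scores ran from 8.43 to 22.7 with a median of 13.5, and the site p-values of the authors' deposited table from 7.76e-09 to 9.63e-05, and no weaker match is listed. A site q-value under 0.05 was reached by 32 of the 56 sites, in 20 peaks. On NW_011645605.1 the median score was 13.4 over 23 sites and on NW_011645625.1 14 over 30. The ranges of the scores on these scaffolds overlapped almost fully.

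The strongest match was the single site of peak 17 on NW_011645605.1 (positions 20988 to 21002, plus strand, score 22.7), 29 bp before the summit. The next was a minus-strand site of peak 128 on NW_011645625.1 (positions 10112 to 10126, score 22.7), 1 bp after the summit. The third was in the same peak (positions 10145 to 10159, minus strand, score 20.5). Peak 128 also held the lowest-scoring sites of all, at positions 10034 to 10048 (8.43) and 10243 to 10257 (8.48). The third lowest was a minus-strand site of peak 30 on NW_011645605.1 (positions 40903 to 40917, 8.57). High and low scores thus occurred in the same peak.

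High scores lay near summits. The 7 highest-scoring sites, each at 19.6 or more and spread over 5 peaks, were all within 34 bp of a summit. The 22 sites within 50 bp had a median score of 17.0 (range 8.64 to 22.7). The 34 sites farther out had a median of 10.9 (8.43 to 18.9). On NW_011645605.1 alone the medians were 19.6 over 7 sites and 11.2 over 16. Across the 56 sites Spearman's rho between score and absolute distance was -0.46, and it was -0.39 over the 39 sites outside peak 128. For the 143 AT-rich sites it was -0.16. These values describe sites that share peaks and summits, and the stretch of sequence from which the motif was learned is not given in the sources used here.

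As a whole the GC-rich sites lay farther from summits than the AT-rich sites. The median distance was 67.5 bp against 31 bp, and 22 of 56 (39.3%) lay within 50 bp against 84 of 143 (58.7%). Within NW_011645605.1 the same order held, with medians of 91.0 bp over 23 GC-rich sites and 59.0 bp over 46 AT-rich sites. Of the 56 sites, 25 lay before the summit, 30 after it and 1 across it, the single site of peak 102 (positions 140472 to 140486, minus strand). On NW_011645605.1 the split was 7 before and 15 after.

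**Figure D2:**
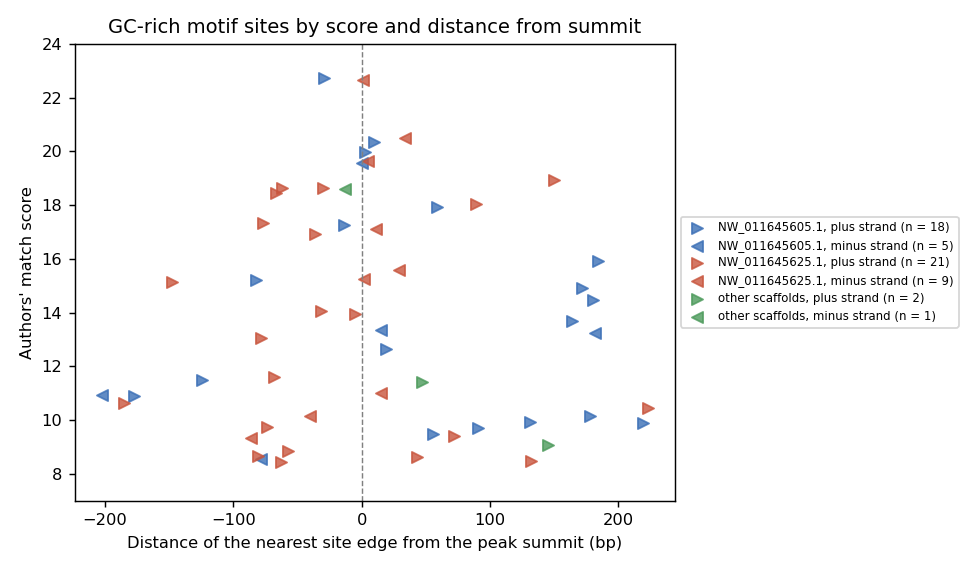
Each triangle is 1 of the 56 GC-rich sites, placed by its distance from the summit in bp and by the authors' match score, with colour for scaffold and direction for strand. The 7 sites at a score of 19.6 or more sit within 34 bp of the dashed line, and sites under 12 are found from 15 to 223 bp away.

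Most sites were read on the plus strand of the assembly. This was the case for 41 of 56 (73.2%, 59.7 to 84.2), for 18 of 23 on NW_011645605.1 and for 21 of 30 on NW_011645625.1. Outside peak 128 it was 31 of 39 (79.5%). The interval treats sites as independent, although 15 neighbouring pairs overlapped, 13 of them on the same strand. Of the AT-rich sites, 81 of 143 (56.6%) were on the plus strand. Minus-strand sites lay nearer to summits, with a median distance of 15 bp over 15 sites against 77.0 bp over 41 plus-strand sites. Outside peak 128 these medians were 27.5 bp over 8 sites and 89.0 bp over 31.

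Lower-case letters in the matched sequences also differed between the motifs. In genome files they commonly mark bases masked as repeats or low-complexity sequence, but the sources used here do not say what they mark. Matches on the minus strand are written all in capitals for both motifs, so only plus-strand sites can be read. Of these, 13 of 41 GC-rich sites (31.7%) held at least 1 lower-case letter, against 76 of 81 AT-rich sites (93.8%). Among the GC-rich ones, 9 were on NW_011645605.1, 3 on NW_011645625.1 and 1 in peak 150.

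Sites that overlapped were found mainly in peak 128. A single site was found in 18 peaks, 2 sites in 7 peaks and 3 or more in 3 peaks. These last were peaks 124 (3 sites), 127 (4 sites) and 128 (17 sites), all on NW_011645625.1. Among the 28 pairs of neighbouring sites within a peak, 15 overlapped, and 13 of these were in peak 128. The other 2 were in peaks 63 and 92 of NW_011645605.1. In peak 63 the sites were shifted by 6 bp on the same strand. In peak 92 they were shifted by 2 bp on opposite strands, so the same bases matched the motif in both directions.

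Peak 128 (positions 9959 to 10289 of NW_011645625.1) is 331 bp long, and its 17 sites covered 122 bp (36.9%) in 4 runs. The first run, from 10011 to 10054, joined 9 sites over 44 bp, 8 of them on the plus strand. The second, from 10067 to 10081, was a single plus-strand site. The third began 1 bp after the summit and joined 6 minus-strand sites over 48 bp, from 10112 to 10159. A lone plus-strand site from 10243 to 10257 made the fourth. Strand thus changed at the summit, with 9 plus-strand and 1 minus-strand sites before it and 1 plus-strand and 6 minus-strand sites after it.

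The most alike pair of all 56 sites was also in this peak. The sites starting at 10067 and 10243, 176 bp apart on the plus strand, had 14 of 15 bases in common. They differed only by C1G (the first site's base, the position from the 5′ end, then the second site's base). Their scores were 18.6 and 8.48.

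In the other peaks of this scaffold the sites were spaced apart. In peak 127 the 4 sites stood on the plus strand, all after the summit, with starts 46, 61 and 73 bp apart. In peak 124 the 3 plus-strand sites started 67 and 167 bp apart, and in peak 125 the 2 plus-strand sites 149 bp apart. Peaks 126 and 129 each had 1 site on either strand, with starts 35 and 48 bp apart. No spacing was shared by these peaks.

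**Figure D3:**
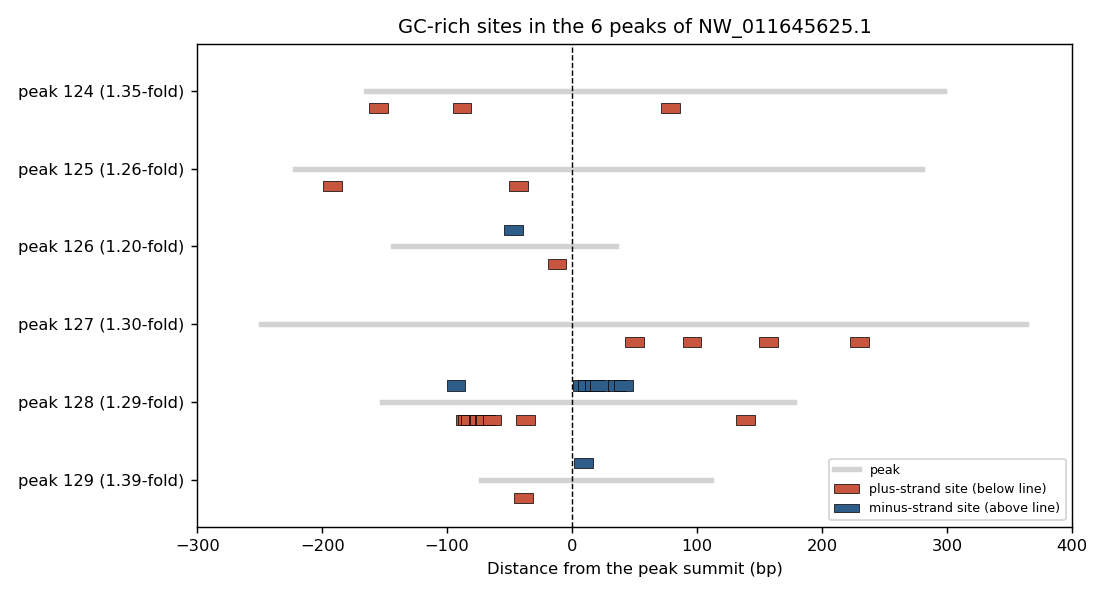
The 6 peaks of NW_011645625.1 are drawn as grey lines aligned on their summits, with distance in bp on the horizontal axis, plus-strand sites under each line and minus-strand sites over it. In peak 128 the run of 9 sites, 8 of them on the plus strand, ends 57 bp before the summit, a single plus-strand site ends 30 bp before it, and the run of 6 minus-strand sites begins 1 bp after it.

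The number of sites did not order the peaks of NW_011645625.1 by enrichment. Peak 128, with 17 sites, had a pileup of 747, an input background of 579 and a fold enrichment of 1.29. Peak 129, with 2 sites, had the highest enrichment of the 6 at 1.39 (pileup 725, background 520). Peak 126, also with 2 sites, had the lowest at 1.20 (pileup 835, background 693). Between them lay peak 124 at 1.35 (pileup 1014), peak 127 at 1.30 (pileup 1018) and peak 125 at 1.26 (pileup 996). The backgrounds of these 3 peaks were 751, 781 and 787, so all 6 peaks had an input above that of every peak on the other scaffolds.

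The median background of the 6 peaks was 722, which was 3.41 times that of the peaks on NW_011645605.1 and 29.1 times the lowest value. Their pileup exceeded the background by 142 to 263, and fold enrichment stayed under 1.40 throughout. No peak without a GC-rich site exists on this scaffold, so the comparison within the scaffold cannot be made there. The density of sites and the input level therefore cannot be told apart on it. None of the 6 peaks held an AT-rich site, which allows a share of up to 50%.

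Peaks with a GC-rich site were weakly enriched. A fold enrichment of at least 2 was reached by 1 of the 28, against 31 of all 150 peaks (20.7%). Their median enrichment was 1.51 (range 1.20 to 2.19), and that of the 122 peaks without a site 1.59 (1.25 to 13.6). Since scaffolds differ in both enrichment and input, the comparison was made within scaffolds.

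On NW_011645605.1, the 19 peaks with a site and the 100 without had nearly the same levels. The median fold enrichment was 1.55 (range 1.35 to 1.81) with a site and 1.53 (1.25 to 3.29) without. The median pileup was 316 (259 to 372) against 322.5 (248 to 470). The median input background was 216 (143 to 226) against 211 (85.9 to 239.97). The ratios of these medians were 1.01, 0.98 and 1.02, and each pair of ranges overlapped widely. Of the 19 peaks, 10 were above the scaffold's median enrichment and 10 above its median background. Medians and means gave opposite directions for enrichment and for background, where the ratios of means were 0.97 and 0.994.

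None of the 19 reached 2-fold, which allows a share of up to 15.8%. That limit holds the share over the scaffold's 119 peaks, 7.56%, so a difference from the 100 peaks without a site, of which 9 reached 2-fold, was not detectable with 19 peaks. By enrichment the 19 ranked from 18th to 112th of the 119, and 17 of the 100 peaks without a site were stronger than the strongest with one, where the larger group has more chances of a high value. The background was under that of every peak with a site in 3 of the 100. Pileup exceeded the background by a median of 110 with a site and 114 without.

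The strongest of the 19 was peak 63, with a fold enrichment of 1.81, a pileup of 259 and a background of 143. Its pileup and its background were the lowest of the 19. Peak 67 followed at 1.80 (pileup 350, background 194) and peak 61 at 1.77 (pileup 327, background 184). The weakest were peak 29 at 1.35 (pileup 268, background 199), peak 27 at 1.41 (pileup 308, background 219) and peak 59 at 1.44 (pileup 315, background 218). The best match scores were 15.9, 9.95 and 20.4 in peaks 63, 67 and 61, and 10.9, 9.90 and 19.97 in peaks 29, 27 and 59. Across the 19 peaks Spearman's rho between best score and enrichment was 0.24, a weak relation that describes peaks of the same libraries and scaffold. Peak 17, with the strongest site of all, was enriched 1.68-fold.

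**Figure D4:**
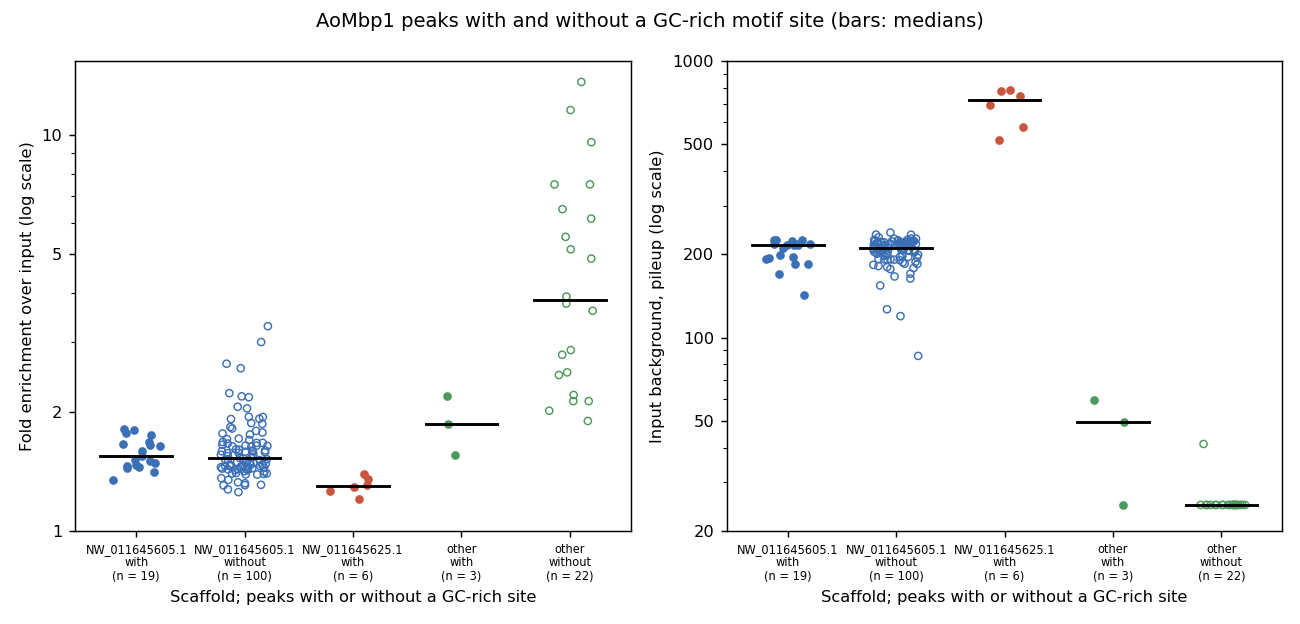
Each point is 1 of the 150 peaks, filled where it holds a GC-rich site, with fold enrichment over input on the left and input background in pileup units on the right, both on log axes, and bars for medians. On NW_011645605.1 the medians with and without a site are 1.55 and 1.53, and the 6 peaks of NW_011645625.1 have the highest background, with a median of 722.

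The peaks with a site were somewhat shorter on NW_011645605.1, with a median length of 477 bp against 618 bp, although peak 30 reached 2885 bp. They were scattered along the scaffold. The first site began at position 16049 and the last ended at 140486, while peaks ran from 60 to 170353. All 119 peaks of the scaffold added up to 101008 bp, so most of that stretch was called as peak. Their median input background was 8.52 times the lowest value. The 20 peaks after the last site and the 8 before the first had none. An AT-rich site was present in 7 of the 19 (36.8%) and in 26 of the 100 (26.0%).

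These 7 peaks were the only ones of all 150 with both motifs. They made up 25% of the 28 peaks with a GC-rich site and 14.3% of the 49 with an AT-rich site. Of the 122 peaks without a GC-rich site, 42 (34.4%) held an AT-rich one. The starts of GC-rich and AT-rich sites lay 18 to 312 bp apart in these peaks. On the other 18 scaffolds 16 of the 22 peaks without a GC-rich site held an AT-rich one, against none of the 3 with a GC-rich site. With only 3 peaks, this absence sets no upper limit on the share.

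The 3 peaks on other scaffolds were among the weaker ones there. Peak 150 of NW_011645769.1 was the least enriched of these 25 peaks at 1.56, peak 137 of NW_011645637.1 came next at 1.86, and peak 144 of NW_011645667.1 was seventh from the lowest at 2.19. The 22 peaks without a site had a median of 3.83 (range 1.90 to 13.6). Only NW_011645637.1 allowed a comparison within the scaffold. There peak 137 had a pileup of 47, while peaks 138 and 139, without a site, had 54 and 575 and enrichments of 2.13 and 13.6.

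The input background was raised at 2 of the 3, with 49.7 at peak 150 and 59.3 at peak 144, and stood at the lowest level of 24.8 at peak 137. Among the 22 peaks without a site it was above that level in 1. Pileups were 78 at peak 150 and 131 at peak 144.

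The authors assigned 6 of the 28 peaks to 5 genes. In peak 137 the site (positions 1426643 to 1426657, minus strand, score 18.6) ended 332 bp upstream of AOL_s00080g396 (positions 1426989 to 1427978), which encodes a hypothetical protein. Of the GC-rich sites in promoter peaks, this was the one with a match q-value under 0.05 (0.00328 in the authors' deposited table). The peak itself had a deposited −log10 q-value of 1.96, short of a q under 0.01, against 12.1 at peak 144. In peak 144 the site (positions 865 to 879, plus strand, score 11.4) lay 1885 bp upstream of AOL_s00110g1. The authors' table gives this gene the symbol esyt3 and describes it as a C2 domain protein. Extended synaptotagmins, after which the symbol is named, tether the endoplasmic reticulum to the plasma membrane in animals.

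The site of peak 150 (positions 5012 to 5026, plus strand, score 9.07) lay inside AOL_s00212g2 (positions 1412 to 5279). The peak had a deposited −log10 q-value of 1.52, also short of a q under 0.01, and is annotated to exon 2 of this gene. Its symbol is Tf2-12, and its description is a reverse transcriptase, the enzyme with which retrotransposons copy their RNA into DNA. It was the only one of the 56 sites inside a gene by this annotation.

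The remaining assigned peaks lay downstream of the single annotated genes of the 2 scaffolds of high input. The 3 sites of peak 124 and the 2 of peak 125 were 707 to 2539 bp past AOL_s00068g1, a hypothetical protein gene of NW_011645625.1. The site of peak 22 was 2552 bp past AOL_s00048g1 on NW_011645605.1, whose symbol is YMF40. The other 22 peaks were annotated as distal intergenic, and on both scaffolds the only annotated gene, and thus the nearest, was the one named. The authors' deposited table places peak 128 at -7006 bp from the start of AOL_s00068g1, where negative distances are upstream.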

How the data were processed

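DAP-seq libraries of AoMbp1 and of input DNA (1 each, grouped by title) were analysed from the authors' tables. Pileup is a deposited signal at the summit. Fold enrichment is the authors' ratio of the AoMbp1 pileup to the input background, taken in the formula with 1 added to each. At 22 peaks that background was the shared lowest value, which may exceed the local input. The deposited peak table also gives a −log10 p-value and q-value per peak. The authors' motif table gives a match score, p-value and q-value per site, and their alignment table counts of reads. The motifs carry MEME in their names in the motif table; its version, like the aligner and peak caller, is not given in the sources used here.

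One repeated header line was dropped from the motif table. The background formula was checked: a Poisson tail from it differed from the deposited −log10 p-values by at most 0.000371. The deposited distances equalled that from the summit to the nearest site edge in all 199 sites. All 19 genes in the motif table had the same coordinates in the RefSeq table of assembly AOL24927 1.0. Sites and peaks are not replicates, so no test was run. Intervals are exact binomial at 95%, the limit for a count of 0 uses 3 counts, and both cover counting error only. At these read depths the Wilson intervals of the duplicate shares were 10.57 to 10.59% and 85.22 to 85.24%.

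Alternatives were a site q under 0.05, a peak q under 0.01, joining overlapping sites, sites within 50 bp of summits, 1 site per peak, means, a split by peak length and leaving out NW_011645625.1. Peaks named are those with 3 or more sites, those outside NW_011645605.1, those of the 3 highest and 3 lowest scores, and the 3 most and 3 least enriched with a site on that scaffold. Peaks named beyond these were chosen after their values were seen. The members and this rule were chosen with earlier results of these data known. Site sequences are described by composition and not printed. The calculations were tested on simulated data. Values were computed with SciPy 1.17.1, NumPy 2.4.6 and pandas 2.3.3 in Python 3.11.15, and plots drawn with Matplotlib 3.10.9.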

Additional observations from a re-analysis of the deposited data

How the results depend on the processing

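No paired analysis was possible because each group had 1 library and no result came from a test. The number of GC-rich sites fell from 56 to 32 with a site q-value under 0.05, and was 54 in peaks with q under 0.01, 41 with all overlapping sites joined and 43 with those sharing at least 8 bases joined. The number of peaks with a site was 14, in place of 28, when sites had to lie within 50 bp of the summit, and 20 to 26 under the other alternatives. The median distance to the summit was 57.5 bp with the best site of each peak and 86.5 bp without NW_011645625.1. The share on the plus strand was 78.6% with 1 site per peak. Leaving out peak 128, an alternative chosen after seeing the data, gave a median distance of 81 bp, a plus-strand share of 79.5% and a density of sites on NW_011645625.1 that was 15.1 times that on NW_011645605.1, in place of 29.05 times. Joining overlapping sites, chosen likewise for the density, gave 18.03 times. On NW_011645605.1 the ratio of enrichment with over without a site was 1.01 by medians and 0.970 by means, 1.04 with sites of q under 0.05, and 1.03 in the peaks longer than the median of 593 bp. The ratio of pileups was 0.980 and became 0.9767 by means, 0.9768 with peak q under 0.01, 0.954 in the shorter peaks and 1.07 in the longer. The ratio of backgrounds was 1.02 and became 0.994 by means, 0.968 in the shorter peaks and 1.05 in the longer. All 3 ratios thus crossed 1 under some alternative, the cause was not tested, and none gives a direction. Without duplicates 11375858 mapped AoMbp1 reads were left, and whether the pileups count duplicates is not stated in the sources used here.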
